A study of Mus musculus with 10 samples.

Results

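The comparison set the 4 Ribo-seq libraries of the middle stages E15.5 and E17 against the 4 libraries of the end stages E12.5 and P0, which together were 8 of the 10 libraries of the series. Its members were chosen by developmental stage alone, and the genes followed were the 13484 of 22373 genes in the table whose 2 libraries of a stage together held 32 or more footprints in at least 1 stage. For each gene, the contrast was the mean of both middle stages minus the mean of both end stages on the scale of log2 CPM, counts relative to library size, with each of the 4 stages given the same weight. A gene called higher in the contrast was termed a peak when the fitted means of E15.5 and of E17 both lay above those of E12.5 and of P0, and a gene called lower was termed a dip when both lay below. The remaining stage, E14, entered the estimate of the spread but not the contrast.

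Ribosome profiling sequences the mRNA fragments that ribosomes shield from RNase digestion, here with RNase T1 and RNase A, so a footprint count reflects the amount of an mRNA together with its occupancy by ribosomes. The tissue was neocortex dissected from wild-type CD-1 mouse embryos and pups of both sexes after timed mating, with E stages counted in embryonic days and P0 the day of birth. No allele, transgene or drug distinguished any group, and each library was made from a pool of brains, so that the 2 replicates of a stage are pools and not single animals. In such a tissue, fewer cells of a type and fewer footprints per cell cannot be told apart.

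In the developing neocortex, radial glia line the ventricle and divide to renew themselves or to produce neurons, directly or through intermediate progenitors. Neurons of the deep layers are born first and those of the upper layers later, and each newborn neuron migrates outward along radial fibers, settles and extends an axon before it forms synapses. Genes used for migration and early axon growth can therefore be in use for a limited window, whereas cell cycle genes recede and synaptic genes accumulate over the whole period, and gliogenesis follows neurogenesis.

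The libraries held from 7544404 to 36129988 counts, with P0 replicate 1 the shallowest, and the P0 replicates were the least alike. The standard deviation of the log2 ratio between the 2 replicates over 4559 well-counted genes was 0.539 at P0, against 0.127 to 0.221 at the other stages. Histone genes took 34.0% and 38.5% of counts at E12.5, 12.2% to 18.7% in the middle libraries and 6.32% and 9.83% at P0, and the TMM scaling factors moved with stage from 0.808 to 1.22. All 12 marker genes of neocortical identity, Tbr1 among them, passed the count filter, and their summed level lay between 867 and 1384 CPM in every library. The sum was 1030 and 1078 CPM at E12.5, 1048 to 1384 in the middle libraries and 905 and 867 at P0. Of the 12, 6 were called higher in the contrast (50%, against 13.5% of all genes) and 2 were peaks (16.7%, against 5.59%), with a median of 0.38.

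The contrast called 1825 genes higher in the middle stages (13.5% of genes tested) and 1368 lower (10.1%) at a limma-voom adjusted p under 0.05 and a difference between the levels of at least 25% of the lower one. Most of these did not qualify as transient. Of the genes called higher, 754 were peaks, which is 5.59% of genes tested, and the other 1071 had at least 1 end stage that reached or passed a middle stage. Of the genes called lower, 645 were dips, or 4.78% of genes tested, and 723 were not. A stricter requirement, that E15.5 and E17 each differ from E12.5 and from P0 in all 4 pairwise tests, left 93 peaks (0.69%) and 78 dips (0.578%). The fit used 1 spread per gene for all stages, while the P0 replicates were the least alike, so tests against P0 may be too lenient. With library quality weights, the stricter peaks numbered 27 and the stricter dips 22. Leaving out 1 library moved these counts widely. Peaks numbered from 497 (without E15.5 replicate 2) to 1230 (without P0 replicate 2) and dips from 364 (without E15.5 replicate 1) to 1006 (without P0 replicate 2), while stricter peaks ran from 24 (without E17 replicate 1) to 301 (without P0 replicate 2) and stricter dips from 10 (without E17 replicate 1) to 155 (without P0 replicate 1). With scaling by total counts only, the contrast called 2901 genes higher and 914 lower, so that 76% of calls were higher rather than 57.2%, and the median contrast of all genes was 0.141 rather than 0.017.

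**Figure D1:**
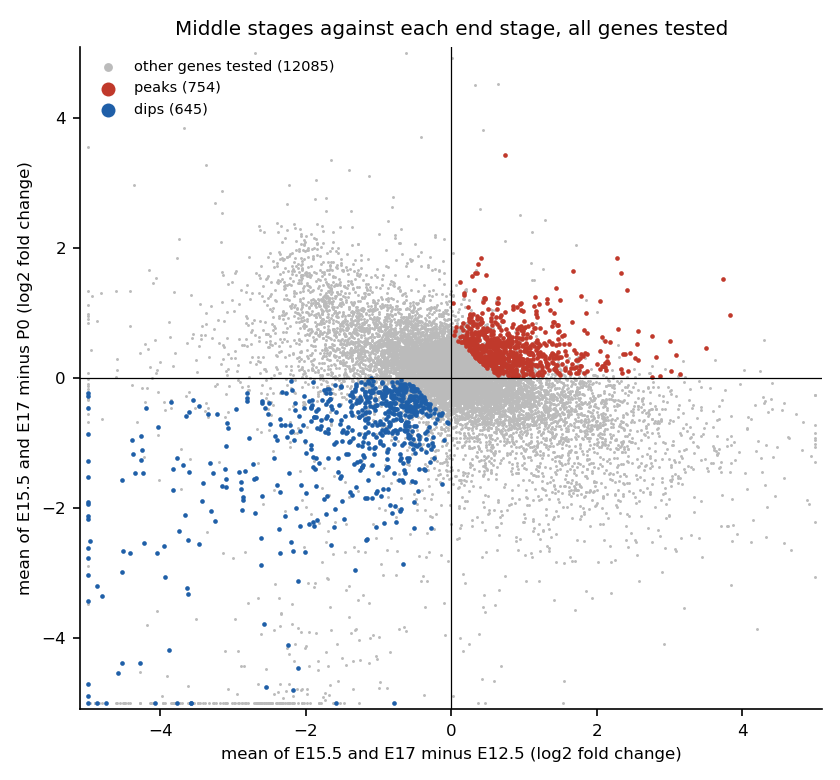
Each point is 1 of the 13484 genes tested, placed by the fitted log2 fold change of the mean of E15.5 and E17 over E12.5 (horizontal) and over P0 (vertical), with the 754 peaks in red, the 645 dips in blue and the 12085 other genes in grey. Points beyond 5 on either axis, 200 genes in all, are drawn at the edge, and the dips reach much farther from the origin than the peaks. Of the 645 dips, 378 averaged under 100 counts in the 8 libraries.

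Peaks were shallow and well counted, and dips were deeper and sparser. The median contrast of peaks was 0.58 on the log2 scale (quartiles 0.45 and 0.79) and that of dips was -0.88 (quartiles -1.5 and -0.58), against 0.02 over all genes tested. These values chose the members and are given as a description. A gene passed the count filter through any 1 stage, so a sparse gene could enter through an end stage alone and lie low in the middle. With no filter there were 876 dips, 536 of them among the 645. With at least 200 footprints in a stage there were 421, of which 337 were among the 645. In the 8 libraries, an average of 100 counts or more was reached by 653 of the peaks (86.6%), by 267 of the dips (41.4%) and by 68.1% of all genes tested. Every middle library lay above every end library for 444 of the 754 peaks (58.9%), and every one lay below for 336 of the 645 dips (52.1%). Over all genes tested, such full separation was seen upward in 595 (4.41%) and downward in 436 (3.23%).

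At the edge of the definition, the margin, which is the smallest of the 4 fitted differences between a middle and an end stage, was close to 0. Clstn2, a calsyntenin of the synapse, was the last gene inside among the peaks, with mean levels of 16.4 CPM at E15.5 and 31.4 at E17, against 16.9 at P0. Arpc2, a subunit of the Arp2/3 actin nucleator, was the first outside, with 279.5 CPM at E15.5 and 321.0 at E17, against 281 at P0. Among the dips, Mrps25 of the mitochondrial ribosome was just inside and Zmat3, a zinc finger protein, just outside.

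Among peaks averaging 100 counts or more, with no overlap between middle and end libraries, the largest margin was that of Sema3c (ENSMUSG00000028780), a secreted class 3 semaphorin that guides axons and migrating neurons. Its level was 11.2 and 16.1 CPM at E15.5 and 24.96 and 22.8 at E17, against 5.39 and 5.72 at E12.5 and 3.92 and 6.63 at P0, with 6.76 and 8.37 at E14. All middle libraries were above all end libraries, and both ends were at about the same low level. The contrast was 1.66 on the log2 scale (SE 0.17, limma-voom adjusted p = 0.000628), and Sema3c was 1 of few peaks for which E17 was also called higher than E15.5, by 0.84 (adjusted p = 0.0472). The gene lies on mouse chromosome 5, and the 250 bases before its annotated start in RefSeq (GRCm38.p6, chr5:17574566-17574815, plus strand) are shown because this gene had the largest margin of these peaks. Capitals mark the letters CAGATG, an E-box of the form that proneural basic helix-loop-helix factors are known to bind, searched on both strands.
Sema3c: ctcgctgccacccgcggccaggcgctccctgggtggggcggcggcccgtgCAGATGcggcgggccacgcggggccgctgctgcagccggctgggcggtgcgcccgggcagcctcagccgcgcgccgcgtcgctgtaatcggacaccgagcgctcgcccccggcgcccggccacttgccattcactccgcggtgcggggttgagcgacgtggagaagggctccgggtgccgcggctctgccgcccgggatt
The letters were found once, starting 200 bases before the gene start, and 1009 of 10376 promoter windows of genes tested (9.72%) held them, so the match is a description of the sequence and not a binding site.

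Svbp (ENSMUSG00000028643), which encodes the small partner of the vasohibin enzymes that remove tyrosine from tubulin, was the next of these peaks and was much more strongly counted. It had 181 and 197 CPM at E15.5 and 179 and 201 at E17, against 75.5 and 77.00 at E12.5 and 67.1 and 95.3 at P0, with 98.7 and 129.5 at E14. The middle libraries formed a plateau at about the same height, and the contrast was 1.27 (SE 0.13, adjusted p = 0.000586). Cnih3, a cornichon protein that escorts AMPA receptors, had 31.7 and 30.3 CPM at E15.5 and 25.7 and 31.4 at E17, against 5.995 and 8.302 at E12.5 and 11.6 and 13.9 at P0, with 14.98 and 12.04 at E14. Its contrast was 1.62 (SE 0.13, adjusted p = 0.000259), and P0 stayed above E12.5 by 0.86 (adjusted p = 0.00596).

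Sox11, a SoxC transcription factor of newborn neurons, was among the most abundant of these peaks. It had 476 and 454 CPM at E15.5 and 381 and 359 at E17, against 196 and 233 at E12.5 and 209.8 and 170.3 at P0, with 382 and 320.0 at E14. E14 was already close to E17, E15.5 was the highest stage, and the contrast was 1.05 (SE 0.10, adjusted p = 0.000447). Its relative Sox4 was a peak as well (contrast 0.88, adjusted p = 0.00171).

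Fam107b, an abundant gene of little-known function, had 364 and 449 CPM at E15.5 and 388 and 379.7 at E17, against 244 and 183 at E12.5 and 138 and 241 at P0, with 243 and 288 at E14. The 2 P0 libraries were far apart, yet both were below every middle library (contrast 1.00, SE 0.18, adjusted p = 0.00556).

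The other 6 peaks with large margins were Frmd4b, Fam210b, Palmd, Sap30l, Zfp811 and the transcript 4930455H04Rik, with contrasts from 1.00 to 1.53. Frmd4b, a FERM domain scaffold protein, had the smallest standard error of the 11 given, with 35.4 to 42.8 CPM in the middle libraries and 16.5 to 19.5 in the end libraries (SE 0.077, adjusted p = 0.000147). Fam210b, a mitochondrial protein, had 44.01 to 49.6 CPM against 18.9 to 27.7, and Palmd, a palmdelphin of the paralemmin family, had 13.2 to 18.5 against 5.003 to 8.66. Sap30l, linked to the Sin3 histone deacetylase complex, and Zfp811, a zinc finger protein, stayed below 10 CPM in every library, so that they rest on the fewest counts of the set, with a mean of 152 and 101 counts. For all 11 the call and the shape were kept in each of 20 alternatives of scaling, filter, test and libraries. The choice by large margin and separate libraries favored this outcome, so it is a description only. Of all 754 peaks, 265 were kept in all 20.

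**Figure D2:**
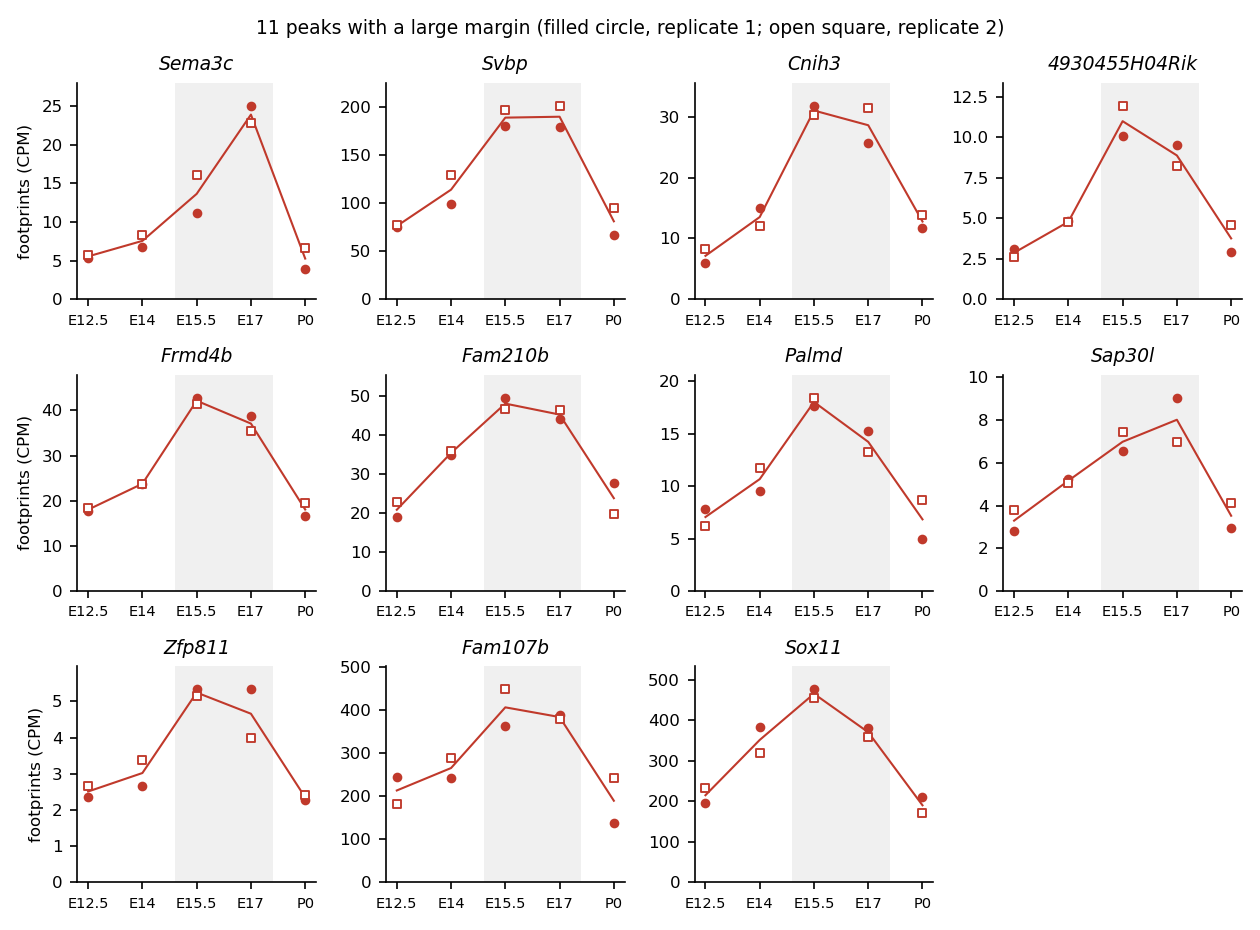
Footprint level (CPM with TMM scaling, axes from 0) of 11 peaks with a large margin by stage, each averaging 100 counts or more, with both libraries of a stage as points, a line through their mean and the middle stages shaded. In every panel the 4 middle libraries lie above the 4 end libraries, while E14 lies near the end levels or between the 2 sets, except for Sox11, where it overlaps E17.

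Genes of newborn and migrating neurons held the largest share of peaks among the lists followed. Of 49 genes tested, 30 were called higher (61.2%, against 13.5% of all genes) and 2 lower (4.08%, against 10.1%). Of the 49, 13 were peaks (26.5%, against 5.59% of all genes), with a median contrast of 0.56 against 0.02 over all genes. The peaks among them were Sema3c, Sox11, Sox4, Unc5d, Robo1, Robo2, Nrp1, Dab1, Tagln3, Cntn2, Neurod6, Prdm8 and Nfib. Without P0 replicate 1 and without P0 replicate 2 there were 16 peaks each time. The summed level of the list was highest at P0 (36320 and 37030 CPM), above the middle libraries (29820 to 34770). Of the 49 genes, 27 were called higher at P0 than at E12.5 and 14 lower, against 30.1% and 32% of all genes. The lists were written with results of these data in view, so these counts describe the lists and carry no test.

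Unc5d, a netrin receptor of multipolar migrating neurons, had 13.7 and 13.3 CPM at E15.5 and 19.5 and 16.5 at E17, against 7.81 and 9.31 at E12.5 and 9.25 and 6.32 at P0, with 12.9 and 11.7 at E14. Its middle and end libraries did not overlap (contrast 0.98, SE 0.13, adjusted p = 0.00141). Tagln3, a neuronal actin-binding protein, had 149 to 165 CPM in the middle libraries and 87.7 to 110.4 in the end libraries, and both sets were narrow (contrast 0.70, SE 0.070, adjusted p = 0.00052).

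Dab1, the adaptor that relays the Reelin signal to migrating neurons, and Neurod6, a transcription factor of young excitatory neurons, were named after their values were seen. Dab1 had 119 and 126 CPM at E15.5 and 135 and 146 at E17, against 35.6 and 37.3 at E12.5 and 92.1 and 109 at P0, with 47.6 and 47.2 at E14, so that it fell back only in part (contrast 1.11, adjusted p = 0.00014, P0 over E12.5 by 1.47, adjusted p = 1.05e-05). Neurod6 had 253 to 294 CPM in the middle libraries, 124 and 114 at E12.5 and 162 and 227 at P0 (contrast 0.84, adjusted p = 0.00137). Both had their highest levels in the middle stages and ended above where they began. The fall of Dab1 to P0 was called from E17 (adjusted p = 0.0164) but not from E15.5 (adjusted p = 0.0707). That of Neurod6 was called from E15.5 (adjusted p = 0.0217) but not from E17 (adjusted p = 0.0965).

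Axon guidance genes followed, with 12 peaks and 1 dip among 59 tested (20.3% and 1.69%, against 5.59% and 4.78% of all genes). Of the 59, 19 were called higher (32.2%, against 13.5% of all genes) and 4 lower (6.78%, against 10.1%), with a median of 0.15. There were 14 peaks when P0 replicate 1 was left out and 7 when P0 replicate 2 was. The peaks were split between ligands and receptors. The ligands were Sema3c, Sema3f, Efna3 and Draxin, and the receptors were Plxna3, Nrp1, Ephb1, Robo1, Robo2, Unc5a, Unc5d and Dscam. Sema3c, Nrp1, Robo1, Robo2 and Unc5d are also counted among the newborn and migrating neuron peaks, so the lists overlap. Plxnd1, a semaphorin receptor also prominent in blood vessels, was the dip.

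Robo1, a Slit receptor, had 5.88 and 5.83 CPM at E15.5 and 8.76 and 7.66 at E17, against 3.19 and 3.22 at E12.5 and 4.13 and 4.27 at P0, with 3.58 and 4.22 at E14 (contrast 0.91, SE 0.10, adjusted p = 0.000694). E17 was the highest stage and was called higher than E15.5 (adjusted p = 0.046). Draxin, a secreted repellent of commissural axons, showed a lower P0 than E12.5, with 26.1 and 24.8 CPM at E15.5 and 33.98 and 28.7 at E17, against 23.1 and 23.9 at E12.5 and 18.8 and 12.2 at P0, with 30.8 and 31.3 at E14. Its margin was small, since the lowest middle library and the highest end library differed by less than the replicates of E17 did (contrast 0.61, SE 0.13, adjusted p = 0.01). Neither middle stage of Draxin was called above E12.5 (adjusted p = 0.63 for E15.5 and 0.0776 for E17), while both were called above P0. Both E14 libraries of Draxin lay above those of E15.5. Nrp1, the neuropilin that binds class 3 semaphorins including Sema3c, also ended below its start, with mean levels of 8.66 CPM at E15.5 and 13.4 at E17, against 7.82 at E12.5 and 3.71 at P0 (contrast 1.03, adjusted p = 0.000613), but its libraries at E12.5 and E15.5 overlapped.

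Among layer-specific genes, 5 of 28 upper-layer and callosal genes were peaks (17.9%, with 14 called higher and a median of 0.51), as were 4 of 27 deep-layer genes (14.8%, with 10 called higher and a median of 0.31). Over all genes tested, 5.59% were peaks and 13.5% were called higher. The summed upper-layer level was highest at P0, with 4670 and 5355 CPM against 2299 to 3374 in the middle libraries. That of the deep-layer list was 2869 to 3205 CPM in the middle libraries and 2618 and 2796 at P0. Pou3f2, a POU factor of upper-layer neurons, had 53.03 and 49.8 CPM at E15.5 and 48.1 and 47.8 at E17, against 10.1 and 11.7 at E12.5 and 36.4 and 31.6 at P0, with 18.7 and 17.2 at E14 (contrast 1.37, SE 0.083, adjusted p = 0.000107). Kitl, the ligand of the receptor Kit, had 39.98 and 44.4 CPM at E15.5 and 57.98 and 54.7 at E17, against 8.75 and 7.67 at E12.5 and 21.8 and 36.8 at P0, with 7.78 and 9.76 at E14 (contrast 1.65, SE 0.16, adjusted p = 0.000472). Both stayed far above E12.5 at P0, by 1.62 and 1.85 on the log2 scale.

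Id2, an inhibitor of basic helix-loop-helix factors, and Ppp1r1b, the phosphatase inhibitor known as DARPP-32, behaved in the same manner within the deep-layer list. Id2 had 525 to 605 CPM in the middle libraries, 90.9 and 96.9 at E12.5 and 512 and 412 at P0 (contrast 1.42, adjusted p = 0.000112). Neither middle stage of Id2 was called above P0 (adjusted p = 0.226 for E15.5 and 0.0905 for E17). Ppp1r1b had 39.7 to 46.8 CPM in the middle libraries, 13.97 and 11.5 at E12.5 and 36.3 and 33.5 at P0 (contrast 1.08, adjusted p = 0.00026). In Pou3f2, Kitl and Id2 the largest step was from E14 to E15.5, whereas Ppp1r1b rose about as much from E12.5 to E14.

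Bcl11b, a transcription factor of subcerebral neurons that the study followed, was not a peak. It had 73.2 and 62.8 CPM at E15.5 and 45.7 and 41.3 at E17, against 40.4 and 44.4 at E12.5 and 62.5 and 38.7 at P0, with 77.04 and 65.3 at E14, and its contrast of 0.27 did not pass (SE 0.15, adjusted p = 0.215), though it did without P0 replicate 1. Nes, an intermediate filament protein of radial glia, had a contrast of -0.12 (adjusted p = 0.244), with 106 and 99.3 CPM at E12.5, 34.3 to 49.6 in the middle libraries and 19.5 and 20.4 at P0, a fall across all the stages of the contrast.

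Growth cone, presynaptic and receptor genes were often called higher (66.7%, 59.1% and 55.2%, against 13.5% of all genes), and most of those called were not peaks. Of 51 growth cone and cytoskeleton genes, 34 were called higher and 6 were peaks (11.8%, against 5.59% of all genes, and 4 to 9 peaks over the alternatives), of 44 presynaptic genes 26 and 1 (2.27%), and of 58 neurotransmitter receptor and postsynaptic genes 32 and 3 (5.17%). At P0, 44, 39 and 53 of these genes were called higher than at E12.5, against 30.1% of all genes. Gap43, a growth cone protein, and Gria2, an AMPA receptor subunit, were named after their values were seen as examples of genes called higher without a peak. Gap43 had 89.8 and 81.3 CPM at E12.5, 236 to 464 in the middle libraries and 592 and 825 at P0, and it lost its call in 7 of the 20 alternatives (contrast 0.44, adjusted p = 0.0299). Gria2 had 19.01 and 20.4 CPM at E15.5, 40.1 and 37.1 at E17 and 22.8 and 27.8 at P0, so that only 1 of the middle stages was above P0.

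The peaks of these lists differed in size. Rab3c, a small GTPase of synaptic vesicles and the single presynaptic peak, had 13.5 and 12.9 CPM at E12.5, 56.8 to 61.3 in the middle libraries and 48.1 and 52.6 at P0 (contrast 1.20, SE 0.072, adjusted p = 0.000107). Its return was not called, from E15.5 (adjusted p = 0.0989) or from E17 (adjusted p = 0.142) to P0. Cntn2, an axonal adhesion protein also called TAG-1, had 19.9 and 22.8 CPM at E12.5, 29.3 to 43.9 in the middle libraries and 25.02 and 15.6 at P0 (contrast 0.79, SE 0.14, adjusted p = 0.00524). Cntn2 was called above E12.5 at E17 (adjusted p = 0.00408) but not at E15.5 (adjusted p = 0.0756). Kif21b, a kinesin that limits microtubule growth, had 50.8 to 60.1 CPM against 28.99 to 45.6 (contrast 0.59, adjusted p = 0.000872).

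Tmsb4x, the actin monomer binding thymosin, was by far the most abundant peak named, with 24370 and 26720 CPM at E15.5 and 27060 and 25660 at E17, against 20800 and 14770 at E12.5 and 18660 and 21860 at P0. Its contrast of 0.46 (SE 0.13, adjusted p = 0.0288) was lost in 5 of 20 alternatives, all of which left out a library of E12.5, E15.5 or E17. Tmsb4x was not called above P0 at E15.5 (adjusted p = 0.169) or at E17 (adjusted p = 0.157). Dclk2, a doublecortin-like kinase, had 116 to 119 CPM in the middle libraries and 114 and 114 at P0, a return too small for the shape to hold with scaling by total counts only.

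Among receptors, Grik3, a kainate receptor subunit, was the peak that also met the stricter requirement, with mean levels of 3.898 CPM at E15.5 and 4.68 at E17, against 0.974 at E12.5 and 2.85 at P0 (contrast 1.36, adjusted p = 0.000447). The synaptic adhesion proteins Nlgn1 and Nlgn2 were the other peaks of that list.

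Neuronal RNA-binding proteins and chromatin regulators each held a share of peaks above the background of 5.59%. Called higher were 39% and 24.2% of them, against 13.5% of all genes, and called lower 12.2% and 4.4%, against 10.1%. Of 41 RNA-binding protein genes, 16 were called higher, 5 lower and 6 were peaks (14.6%, median 0.25). Of 91 chromatin regulator genes, 22 were called higher, 4 lower and 12 were peaks (13.2%, median 0.16), and without P0 replicate 2 the number called higher was 34 and the number of peaks 14. The peaks among the RNA-binding proteins were Khdrbs2, Rbfox2, Pum2, Elavl3, Celf2 and Srrm4, and most are regulators of splicing.

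Khdrbs2, the splicing regulator SLM1, rose most among them, with 80.7 and 88.6 CPM at E15.5 and 66.2 and 57.2 at E17, against 31.5 and 21.6 at E12.5 and 28.7 and 53.7 at P0, with 34.5 and 42.9 at E14 (contrast 1.15, SE 0.20, adjusted p = 0.00472). Rbfox2, a splicing factor, had 134 and 139 CPM at E12.5, 327 to 354 in the middle libraries and 282 and 318 at P0 (contrast 0.76, SE 0.067, adjusted p = 0.000339). Rbfox2 was not called above P0 at E15.5 (adjusted p = 0.0799) or at E17 (adjusted p = 0.289). The call of Pum2, a Pumilio repressor of translation, was fragile, since its contrast of 0.51 (adjusted p = 0.0449) lost its call in 13 of 20 alternatives, with edgeR's quasi-likelihood test among them.

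Chromatin peaks spanned several complexes. They held Smarca2, Smarcd3, Dpf1 and Bcl7a of the BAF remodeler, Chd3 and Chd9 of the CHD family, the demethylases Kdm2b, Kdm5a and Kdm5b, the deacetylase Hdac4, the 5-methylcytosine oxidase Tet2, and Auts2. Bcl7a was the peak of this list that met the stricter requirement, with 227 and 222 CPM at E15.5 and 179.9 and 178 at E17, against 135 and 148 at E12.5 and 133 and 145 at P0, with 194 and 196 at E14 (contrast 0.52, SE 0.064, adjusted p = 0.00117). Chd3 had 28.2 to 29.8 CPM in the middle libraries, 16.8 and 15.4 at E12.5 and 27.7 and 27.8 at P0, so its return was small (contrast 0.46, adjusted p = 0.00213), and its shape was lost with scaling by total counts only.

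Tet2 had 4.096 to 4.67 CPM against 2.83 to 3.41 in the end libraries (contrast 0.45, adjusted p = 0.0145), and Kdm5b had 50.6 to 65.9 against 41.6 to 50.1 (contrast 0.34, adjusted p = 0.0147). These calls were lost in 5 and in 8 of 20 alternatives. Dnmt3a, the de novo DNA methyltransferase, was the chromatin dip and moved the opposite way from Tet2, with 62.7 and 66.9 CPM at E12.5, 63.6 and 50.1 at E14, 30.6 to 32.8 in the middle libraries and 38.4 and 40.6 at P0 (contrast -0.69, SE 0.089, adjusted p = 0.00136). Its rise to P0 was not called from E15.5 (adjusted p = 0.0968) or from E17 (adjusted p = 0.077).

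The progenitor lists held shares of peaks close to that of all genes (6.67% for radial glia and 8.33% for intermediate progenitors, against 5.59%). Of 30 radial glia genes, 15 were called lower (50%, against 10.1% of all genes) and 3 higher, with 2 peaks, 2 dips and a median of -0.46. Of 24 intermediate progenitor and proneural genes, 7 were called higher (29.2%, against 13.5% of all genes) and 2 lower, with 2 peaks and no dip. Ptprz1, a receptor phosphatase of outer radial glia and oligodendrocyte precursors, was the radial glia peak that met the stricter requirement. It had 35.3 and 33.5 CPM at E15.5 and 54.3 and 54.97 at E17, against 20.4 and 18.7 at E12.5 and 24.4 and 26.1 at P0, with 18.95 and 21.7 at E14 (contrast 0.96, SE 0.075, adjusted p = 0.000213). It was 1 of the 26 peaks that rose again from E15.5 to E17, by 0.67 (adjusted p = 0.0116). Pcgf2, a Polycomb group protein, was an intermediate progenitor peak (contrast 0.42, adjusted p = 0.0173), a call lost in 5 of 20 alternatives. Neither middle stage of Pcgf2 was called above E12.5 (adjusted p = 0.0807 for E15.5 and 0.148 for E17). Fam107a, also a marker of outer radial glia and named after its values were seen, was a dip by the stricter requirement, with mean levels of 0.8501 CPM at E15.5 and 0.886 at E17, against 3.795 at E12.5 and 7.51 at P0 (contrast -2.62, adjusted p = 0.000103), so that it and Ptprz1 moved in opposite directions.

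Cell cycle genes held no peak and no dip. Of 42 S phase genes, 17 were called lower (40.5%, against 10.1% of all genes) and none higher, with a median of -0.31. Of 45 mitosis genes, 2 were called lower (4.44%), with a median of -0.11, and 8 were called lower without P0 replicate 1. All 42 and 44 of the 45 were called lower at P0 than at E12.5, against 32% of all genes, so that they fell across the series. Pcna, the replication clamp, named after its values were seen, had 124 and 136 CPM at E15.5 and 95.1 and 93.97 at E17, against 291 and 283 at E12.5 and 50.5 and 71.6 at P0.

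**Figure D3:**
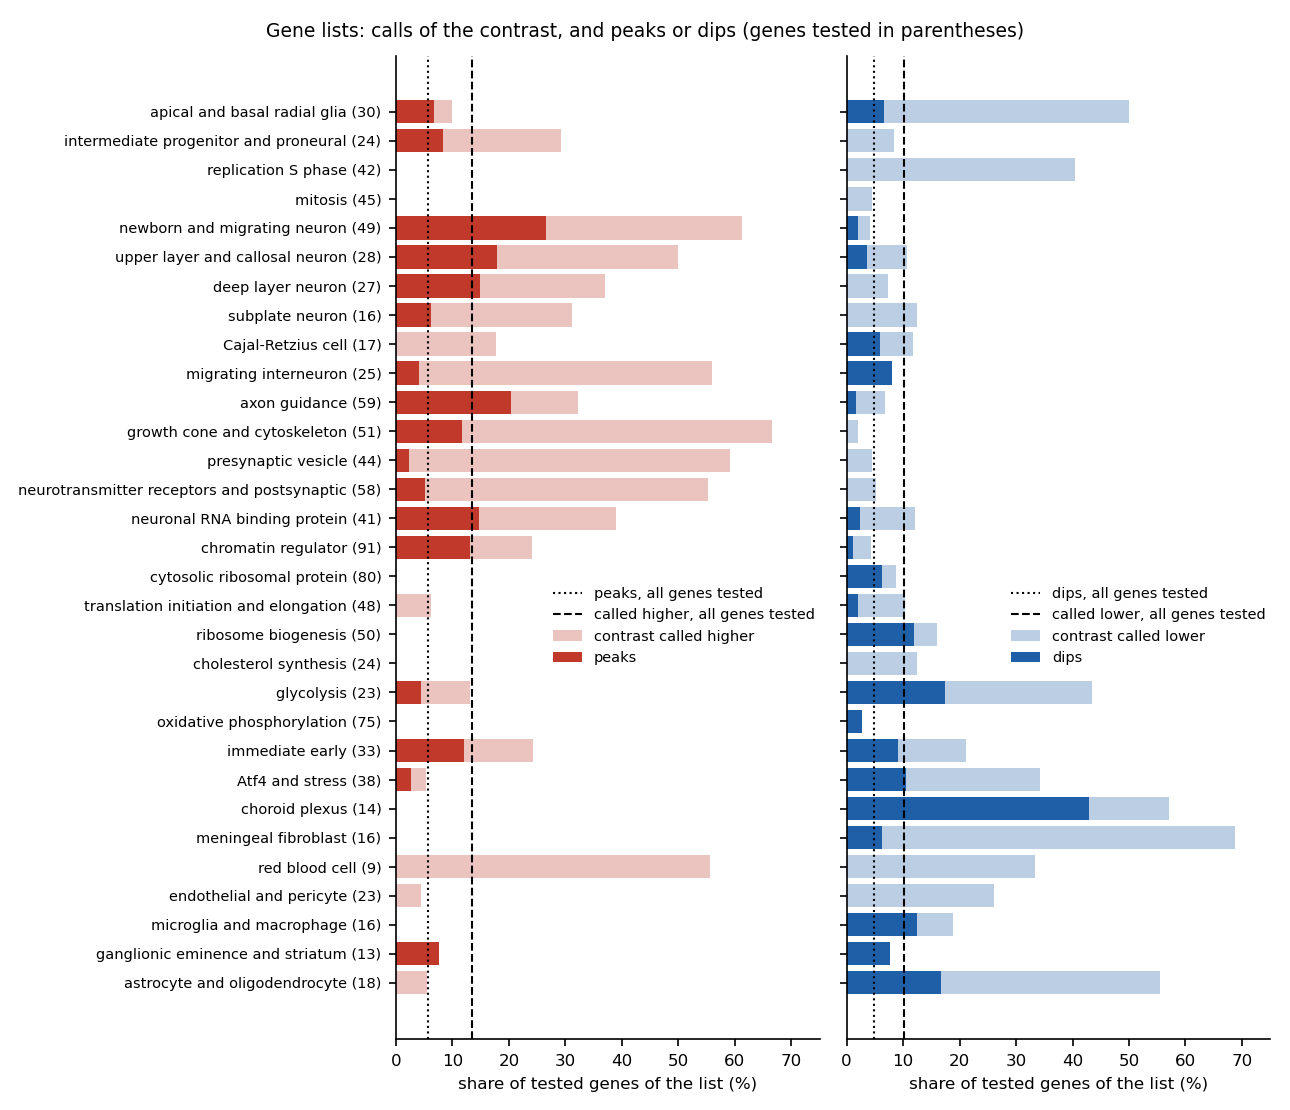
Share of the tested genes of each list that were called higher (left, light red), peaks (left, dark red), called lower (right, light blue) or dips (right, dark blue), with dashed and dotted lines at the shares over all genes tested. Newborn and migrating neuron genes hold the largest share of peaks, at 26.5%, and presynaptic and receptor genes are often called higher with few peaks.

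The dips with the largest margins, among those averaging 100 counts or more and with no overlap between middle and end libraries, were a mixed set of genes. Meig1, a gene known from spermiogenesis and ciliated cells, led them with 0.844 and 2.37 CPM at E15.5 and 1.33 and 2.14 at E17, against 5.500 and 4.11 at E12.5 and 5.11 and 11.8 at P0, with 7.16 and 8.24 at E14 (contrast -2.12, SE 0.37, adjusted p = 0.00491). Its lowest level rests on 28 counts in the library E15.5 replicate 1. Plec, the cytoskeletal linker plectin, had 3.38 and 2.62 CPM at E15.5 and 3.78 and 3.15 at E17, against 8.91 and 7.82 at E12.5 and 11.6 and 11.1 at P0, with 7.201 and 6.28 at E14 (contrast -1.58, SE 0.12, adjusted p = 0.000194). Plec was highest at P0 and Meig1 at P0 replicate 2, and neither had an end library at the level of a middle one.

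Add3 (ENSMUSG00000025026), gamma-adducin of the membrane skeleton, had the smallest standard error of the 12 dips. It had 16.7 and 16.5 CPM at E15.5 and 15.4 and 17.1 at E17, against 35.97 and 36.8 at E12.5 and 29.7 and 35.2 at P0, with 30.04 and 29.2 at E14 (contrast -1.07, SE 0.079, adjusted p = 0.000194). The middle level was about the same in all 4 libraries, and the end stages did not pass a test against each other (adjusted p = 0.25).

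Cdkn1a, the cyclin-dependent kinase inhibitor p21, had 13.98 and 12.2 CPM at E15.5 and 14.7 and 19.8 at E17, against 31.6 and 34.7 at E12.5 and 58.3 and 35.8 at P0, with 32.6 and 29.1 at E14 (contrast -1.36, SE 0.17, adjusted p = 0.0011). Id3, an inhibitor of basic helix-loop-helix factors and a target of BMP signaling, had 18.8 and 14.6 CPM at E15.5 and 18.8 and 23.02 at E17, against 34.6 and 40.2 at E12.5 and 65.04 and 42.1 at P0, with 47.5 and 40.4 at E14 (contrast -1.23, SE 0.16, adjusted p = 0.00141). For both genes P0 replicate 1 was the highest library, and the lower P0 library was still above every middle one. Id3 thus dipped at the stages where its relative Id2 was highest, although the fall of Id2 to P0 was not called.

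Mt1 (ENSMUSG00000031765), a metallothionein that binds zinc and copper, had 71.95 and 65.8 CPM at E15.5 and 55.8 and 51.7 at E17, against 132 and 182 at E12.5 and 132 and 103 at P0, with 234 and 227 at E14 (contrast -1.14, SE 0.12, adjusted p = 0.000693). Mt2, the neighboring gene, was named after its values were seen and had 119 and 113 CPM at E15.5 and 95.8 and 114 at E17, against 221 and 259.9 at E12.5 and 151 and 148 at P0, with 363 and 312 at E14 (contrast -0.78, SE 0.092, adjusted p = 0.000933). In both, E14 was the highest stage, the drop to E15.5 was the largest step and both P0 libraries lay below both of E14. The genes lie side by side on chromosome 8 and share sequence, so reads that match both may have been divided between them. The 250 bases before each gene start in RefSeq (GRCm38.p6, plus strand, chr8:94178839-94179088 for Mt1 and chr8:94172368-94172617 for Mt2) are shown because the genes are known to be induced by zinc through metal response elements. Capitals mark matches on either strand to the core letters TGCGCNC or TGCACNC, where N is any base.
Mt1: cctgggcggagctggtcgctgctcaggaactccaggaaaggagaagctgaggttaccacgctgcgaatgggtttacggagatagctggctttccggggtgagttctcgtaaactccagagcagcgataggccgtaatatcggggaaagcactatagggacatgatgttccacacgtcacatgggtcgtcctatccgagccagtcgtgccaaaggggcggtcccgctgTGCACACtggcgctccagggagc
Mt2: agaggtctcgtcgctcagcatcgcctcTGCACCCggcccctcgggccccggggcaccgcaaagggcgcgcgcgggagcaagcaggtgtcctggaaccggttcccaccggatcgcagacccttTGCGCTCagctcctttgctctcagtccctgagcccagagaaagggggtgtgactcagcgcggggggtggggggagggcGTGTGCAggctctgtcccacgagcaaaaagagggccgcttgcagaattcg
There was 1 match before Mt1 and there were 3 before Mt2, and TGCGCNC and TGCACNC were held by 22.5% and 10.7% of the 10376 promoter windows, so that a match in itself is common.

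H2-K1, a class I major histocompatibility molecule, was lowest at E15.5, with 5.82 and 3.55 CPM at E15.5 and 7.18 and 7.92 at E17, against 20.5 and 11.3 at E12.5 and 8.59 and 20.7 at P0, with 9.85 and 8.78 at E14 (contrast -1.33, SE 0.31, adjusted p = 0.0153). The replicates of both end stages lay far apart, and the call was lost without E15.5 replicate 2 and without E17 replicate 1. Its light chain partner B2m, named after its values were seen, was as variable, with 33.8 and 22.03 CPM at E12.5, 5.03 to 7.75 in the middle libraries and 3.26 and 23.2 at P0. P0 replicate 1 was below every middle library of B2m, and its call (contrast -1.55, adjusted p = 0.0437) was lost in 12 of 20 alternatives.

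The remaining 5 of the 12 had different roles. Mthfd1l and Aldh2, both mitochondrial enzymes, of folate and of aldehyde metabolism, had 1.92 to 2.501 CPM and 22.04 to 26.6 CPM in the middle libraries against 4.46 to 8.53 and 35.3 to 42.6 in the end libraries. Pdlim5, a scaffold of the actin cytoskeleton, had 33.2 and 35.9 CPM at E12.5, 10.8 to 14.5 in the middle libraries and 16.9 and 25.99 at P0 (contrast -1.09, SE 0.14, adjusted p = 0.00139). Mif4gd, a partner of the histone mRNA stem-loop binding protein in translation, had 2.49 to 3.87 CPM against 6.01 to 7.98 (contrast -1.03, adjusted p = 0.000693). Kbtbd11, a Kelch and BTB domain protein, had 3.97 to 5.63 CPM against 6.85 to 10.1 (contrast -0.84, adjusted p = 0.00675).

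**Figure D4:**
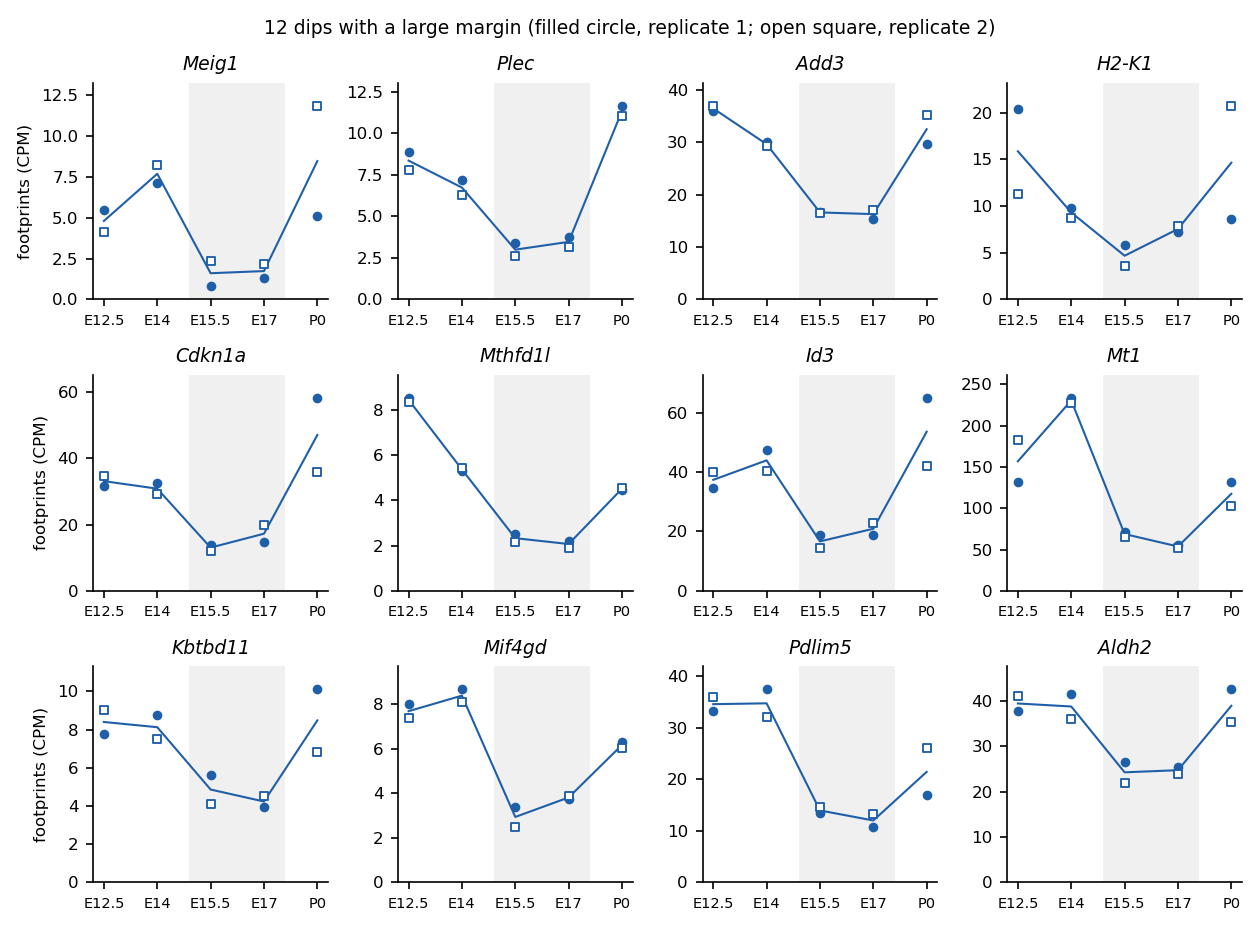
Footprint level (CPM with TMM scaling, axes from 0) of the 12 dips with the largest margin by stage, among those averaging 100 counts or more and with no overlap between middle and end libraries, drawn like the peaks. In every panel the 4 middle libraries lie below the 4 end libraries, and for H2-K1, Cdkn1a, Id3 and Meig1 the replicates of P0 lie far apart.

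Genes of glycolysis were often lower in the middle stages, and those of respiration seldom. Of 23 glycolysis genes, 10 were called lower (43.5%, against 10.1% of all genes) and 3 higher (13%, against 13.5%), with a median of -0.42. At P0, 14 of the 23 were called lower than at E12.5 and 6 higher, against 32% and 30.1% of all genes. There were 4 dips (17.4%, against 4.78% of all genes) and 1 peak. The dips were Gpi1, Aldoa, Gapdh and Ldha, and the peak was the neuronal glucose transporter Slc2a3. Without P0 replicate 2 there were 7 dips, and without P0 replicate 1 there were 4. Of 75 oxidative phosphorylation genes, 2 were called lower, Sdhd and Atp5a1, both of them dips, and none higher, with a median of -0.07 that became 0.05 with scaling by total counts only.

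Aldoa, the aldolase, had 209.8 and 198 CPM at E15.5 and 200.0 and 211 at E17, against 286 and 315 at E12.5 and 312 and 302 at P0, with 291 and 265 at E14, and both ends were at about the same level (contrast -0.57, SE 0.068, adjusted p = 0.00096). Ldha, lactate dehydrogenase, had 1617 and 1676 CPM at E12.5, 896 to 965 in the middle libraries and 1208 and 1142 at P0 (contrast -0.56, SE 0.062, adjusted p = 0.000758). Gapdh, often used as a reference gene, had 3522 and 3583 CPM at E12.5, 1874 to 2201 in the middle libraries and 2483 and 2326 at P0 (contrast -0.54, SE 0.063, adjusted p = 0.000917). Ldha and Gapdh recovered only in part by P0. Sdhd of respiratory complex II had 47.8 to 50.97 CPM against 60.9 to 82.99, and Atp5a1, the alpha subunit of ATP synthase, had 466 to 572 against 634 to 702, with contrasts of -0.46 and -0.37. The call of Sdhd was lost in 4 alternatives and its shape also with scaling by total counts only, which lost the call of Atp5a1.

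The translation machinery showed no peak, and the share of dips in its lists ran from 2.08% to 12%, against 4.78% of all genes. Of 80 cytosolic ribosomal protein genes tested, 7 were called lower (8.75%, against 10.1% of all genes), none higher and 5 were dips (6.25%), with a median of -0.21. The dips numbered 9 without P0 replicate 1 and 18 without P0 replicate 2. Most of the family ended lower than it began, since 69 of the 80 were called lower at P0 than at E12.5, against 32% of all genes. Of 50 ribosome biogenesis genes, 8 were called lower (16%) and 6 were dips (12%), with a median of -0.22, and 18 were called lower without P0 replicate 1. Of 48 initiation and elongation factors, 5 were called lower (10.4%), 3 higher and 1 was a dip (2.08%), the elongation factor subunit Eef1d. Without P0 replicate 1 there were 6 dips.

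Rps2 of the small subunit had 433 and 409 CPM at E15.5 and 397 and 379.8 at E17, against 677 and 772 at E12.5 and 632 and 437 at P0, with 708 and 632 at E14 (contrast -0.61, SE 0.12, adjusted p = 0.0076), and the gap between P0 replicate 2 and the highest middle library was less than 5 CPM. Rpl14 of the large subunit had 306 and 295 CPM at E12.5, 179 to 194 in the middle libraries and 213 and 201 at P0 (contrast -0.43, adjusted p = 0.00177), and it lost its call with scaling by total counts only. For Rps2 and Rpl14, neither middle stage was called below P0. The other dips of the family were Rps26, Rpsa and Rpl39, in which libraries of the middle stages and of P0 overlapped. Ribosomal protein genes have many near-identical processed copies, so their counts are uncertain.

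Within ribosome biogenesis, Nhp2, a protein of box H/ACA particles, had 27.5 and 26.5 CPM at E15.5 and 26.3 and 29.7 at E17, against 35.5 and 40.1 at E12.5 and 37.3 and 36.6 at P0, with 38.1 and 36.2 at E14 (contrast -0.44, SE 0.076, adjusted p = 0.00452). The end stages of Nhp2 were nearly equal and all middle libraries lay below them. Rrp12, needed for export of pre-ribosomes, had 2.54 to 3.72 CPM against 4.68 to 5.77 (contrast -0.72, adjusted p = 0.00341), and Polr1a, the largest subunit of RNA polymerase I, had 3.46 to 5.41 against 5.63 to 7.82 (contrast -0.58, adjusted p = 0.0052). The others were the methyltransferase fibrillarin (Fbl), Rrp1b and the helicase Ddx27.

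Rbm3, a cold-inducible RNA-binding protein named after its values were seen, was the most abundant dip given here. It had 2275 and 2130 CPM at E15.5 and 1874 and 1780 at E17, against 3313 and 3195 at E12.5 and 3052 and 3930 at P0, with 3096 and 2956 at E14 (contrast -0.74, SE 0.089, adjusted p = 0.000995), and all 20 alternatives kept it as a dip. The splicing regulator Mbnl1 was a smaller dip (13.1 to 15.9 CPM against 18.6 to 21.8, contrast -0.42, adjusted p = 0.023) and lost its call in 6 alternatives. Mbnl1 was not called below P0 at either middle stage.

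Stress genes were more often called lower than higher, and activity genes were split. Called lower were 34.2% and 21.2% of them, against 10.1% of all genes, and called higher 5.26% and 24.2%, against 13.5%. Dips were 10.5% and 9.09%, against 4.78% of all genes, and peaks 2.63% and 12.1%, against 5.59%. Of 38 Atf4 target and stress genes, 13 were called lower, 2 higher, 4 were dips and 1 a peak (median -0.21, and -0.41 to -0.09 over the alternatives), with 9 dips without P0 replicate 2. The dips were the cystine transporter Slc7a11, the transcription factors Cebpb and Nupr1 and the chaperone Hsph1, and the peak was Pycr1 of proline synthesis. Of 33 immediate early genes, 8 were called higher, 7 lower, 4 were peaks and 3 dips (median 0.05, -0.1 to 0.17 over the alternatives). The peaks Dusp1, Dusp4, Maff and Zfp36 and the dips Fos, Klf10 and Nptx2 are all induced by growth factors or neuronal activity, so this list had no common direction. Dusp1, a phosphatase of MAP kinases, had 8.97 to 12.02 CPM against 6.22 to 8.59 (contrast 0.57, adjusted p = 0.0116), and Klf10, a zinc finger factor induced by TGF-beta, had 3.64 to 4.37 against 4.96 to 6.31 (contrast -0.47, adjusted p = 0.0125). Each lost its call without 1 library, E17 replicate 1 for Dusp1 and E15.5 replicate 2 for Klf10. None of 24 cholesterol synthesis genes was a peak or a dip, and 3 were called lower.

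Markers of cells other than neocortical neurons and progenitors were often called lower in the middle stages, and most of those called were not dips. Of the 109 marker genes of other cells that passed the count filter, 42 were called lower (38.5%, against 10.1% of all genes), 13 were dips (11.9%, against 4.78%), 8 were called higher and 1 was a peak. They held 13 of the 645 dips. Of 14 choroid plexus genes tested, 8 were called lower and 6 were dips, of 16 meningeal fibroblast genes 11 and 1, of 16 microglia and macrophage genes 3 and 2, and of 23 endothelial and pericyte genes 6 and none.

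The summed level of 16 choroid plexus genes was 524 and 456 CPM at E12.5, 1335 and 1346 at E14, 56.2 to 77.0 in the middle libraries and 57.8 and 42.4 at P0. That of 16 meningeal genes was 128 and 132 CPM at E12.5, 6.08 to 13.4 in the middle libraries and 6.75 and 26.3 at P0. Both were thus high at E12.5 and low from E15.5 on, and P0 was not clearly above the middle stages. The choroid plexus markers Ttr and Folr1 had 4.45 to 12.7 and 0 to 0.445 CPM in the middle libraries, and 6.66 to 309 and 0.109 to 9.28 in the end libraries. The part of such cells in the dips was not tested.

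The summed level of glial markers was lowest at E15.5, while single markers differed in their course. The summed level of 22 astrocyte and oligodendrocyte genes was 462 and 486 CPM at E12.5, 273 to 412 in the middle libraries and 678 and 613 at P0, and of 18 tested, 10 were called lower and 3 were dips, Apoe, Pdgfra and Cnp. Of the 18, 55.6% were called lower and 16.7% were dips, against 10.1% and 4.78% of all genes. At P0, 15 of the 18 were called higher than at E12.5, against 30.1% of all genes. Olig1, a transcription factor of the oligodendrocyte lineage, had 0.275 and 0.187 CPM at E12.5, 2.833 to 12.8 in the middle libraries and 46.4 and 25.96 at P0, a rise and not a dip. Apoe, an apolipoprotein of glia and a large part of the sum, had mean levels of 60.7 CPM at E15.5 and 135 at E17, against 149 at E12.5 and 270.0 at P0 (contrast -1.14, adjusted p = 0.000173), and its libraries of E12.5 and E17 overlapped. Cnp, an enzyme of oligodendrocytes, had 3.74 and 3.78 CPM at E12.5, 2.702 to 3.53 in the middle libraries and 7.29 and 7.59 at P0 (contrast -0.74, adjusted p = 0.00132). Neither middle stage of Cnp was called below E12.5, and its dip shape was lost with scaling by total counts only. Defining markers of mature astrocytes were near 0 before birth, with Gfap between 0 and 1.13 CPM from E12.5 to E17 and 10.4 and 12.3 at P0.

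S100a6, a calcium-binding protein found in fibroblasts and some progenitors and named after its values were seen, was a dip with 42.9 and 38.7 CPM at E12.5, 42.7 and 47.95 at E14, 5.33 to 9.72 in the middle libraries and 17.95 and 11.98 at P0 (contrast -1.66, adjusted p = 0.00026). Like the meningeal sums it was high at E12.5 and E14, and their part in it was not tested. Red blood cell genes fell along the series, with a summed level of 11210 and 11610 CPM at E12.5, 6903 to 7423 in the middle libraries and 1862 and 1439 at P0, and held no peak or dip among 9 tested.

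**Figure D5:**
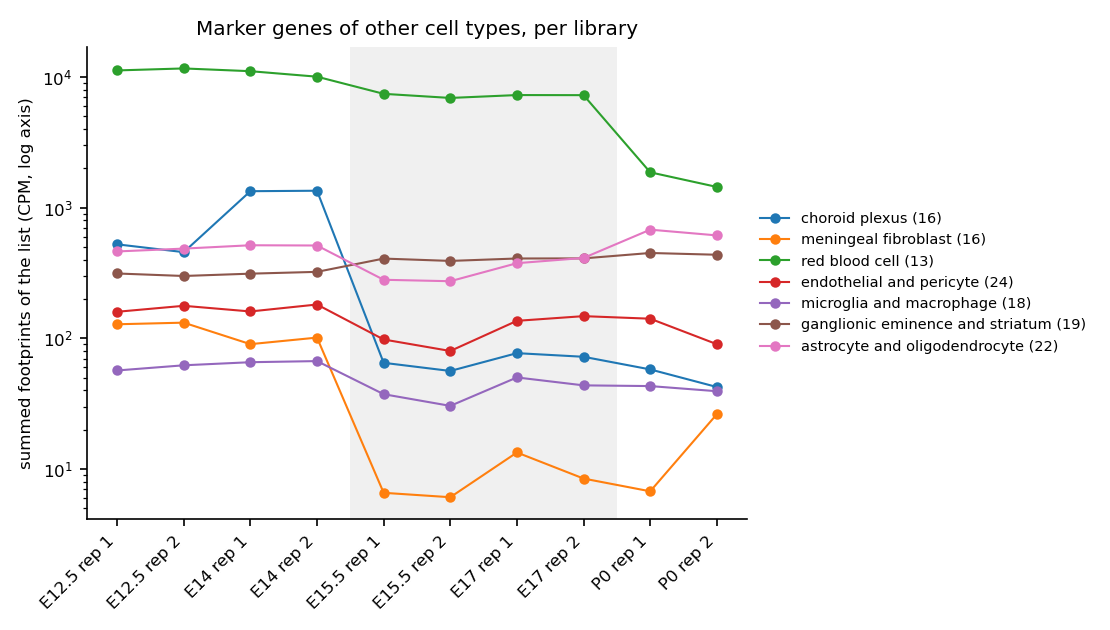
Summed footprint level (CPM, log axis) of the marker genes of 7 kinds of other cells in each of the 10 libraries, with the middle libraries shaded and the number of genes in parentheses. Choroid plexus and meningeal genes drop between E14 and E15.5, red blood cell genes drop between E17 and P0, and astrocyte and oligodendrocyte genes are lowest at E15.5.

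Neurons that enter from the ventral forebrain were followed by 25 interneuron genes. Of these, 14 were called higher (56%, against 13.5% of all genes) and 2 lower (8%, against 10.1%). There were 1 peak (Erbb4, the neuregulin receptor) and 2 dips (Prox1 and Sp8). Prox1, a homeobox factor of caudally derived interneurons, had 5.28 and 5.42 CPM at E12.5, 5.21 and 5.48 at E14, 3.25 to 4.66 in the middle libraries and 5.77 and 6.44 at P0 (contrast -0.63, SE 0.10, adjusted p = 0.0028), and it was no dip with scaling by total counts only. Of 13 ganglionic eminence and striatum genes, Meis2, a homeobox factor also used in cortex, was a peak (254 to 286 CPM against 192 to 227, contrast 0.37, adjusted p = 0.00382) and Tac1 was a dip. The ventral markers Lhx8 and Drd2 were at or near 0, at most 0.109 CPM in any library, and Nkx2-1 had 0.0374 to 0.979 CPM. The summed level of 19 ganglionic eminence and striatum genes was 313 and 299.7 CPM at E12.5. It was 391 to 409 in the middle libraries and 449.5 and 435.7 at P0. Of 16 subplate genes 5 were called higher (31.2%, against 13.5% of all genes) and 1 was a peak (Nxph3). Of 17 Cajal-Retzius genes 3 were called higher (17.6%) and 1 was a dip (Lhx1).

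The contrasts E17 minus E15.5 and P0 minus E12.5 are orthogonal to the one that chose the peaks and dips, although the requirement to lie beyond both ends limits how far the stages can differ. Between the middle stages, 26 of 754 peaks (3.45%) were called higher and 9 (1.19%) lower at E17, against 5.61% and 3.43% of all genes tested. Of the 645 dips, 13 (2.02%) were called higher and 1 (0.155%) lower. Few members were therefore called between E15.5 and E17. The fit estimates 1 spread per gene over all stages, P0 with its less alike replicates among them, so few calls do not show equal levels.

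Between the end stages, the members called were mostly higher at P0 among peaks and mostly lower among dips. Among peaks, 298 (39.5%) were called higher at P0 than at E12.5 and 55 (7.29%) lower, against 30.1% and 32% of all genes tested. Among dips, 64 (9.92%) were called higher and 265 (41.1%) lower. Kitl, Id2, Rab3c and Dclk2 are peaks of the first kind, Draxin is a peak that ended lower, and S100a6, Mthfd1l and Dnmt3a are dips that ended lower. Cnp and Plec are dips that ended higher, by 0.99 (adjusted p = 0.000255) and 0.44 (adjusted p = 0.0324).

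E14 lies in time between E12.5 and E15.5 and was not used to choose the members. The stages it is set against did choose them, so an E14 short of the middle stages is partly built in. The same shares over all genes tested were not computed, and the values are a description. In 83 of 754 peaks the mean of E14 reached that of a middle stage, in 207 it lay between the end and the middle stages, and in 464 it lay within the range of the end stages or short of it. Among the dips these counts were 36, 162 and 447. On the log2 scale, E14 had covered a median of 32.7% of the change from E12.5 to E15.5 in peaks and 18.5% in dips.

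The peaks were longer genes at the median. In RefSeq, with 98% of peaks, 98.4% of dips and 97% of genes tested matched by symbol, the median genomic length was 42.1 kb for peaks, 21.3 kb for dips and 24.3 kb for all genes tested. Promoter windows were matched for 78.6% of peaks, 76% of dips and 77% of all genes tested, which is under the 80% set as the minimum, so the comparison of promoter base content and motifs between these sets was void.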

How the data were processed

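Ribo-seq footprints of neocortex were deposited as a table of whole-number counts per gene, with 22373 genes and 1 column for each of 10 libraries, 2 a stage. Per the study's methods, the authors collapsed duplicate reads, removed rRNA, tRNA and snoRNA reads, and aligned the rest with STAR to GENCODE release M12, keeping reads with many matches. The submitters' processing notes give STAR 2.7.0, and the methods give another version. The methods then name DeepShape-prime for isoform abundance and tximport for gene counts. Which step made this table, and so how reads that match several genes were divided in it, is not given in the sources used here. Of the gene identifiers, 22274 matched a symbol and 99 did not.

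Genes with at least 32 footprints in a stage were kept. Counts were fitted in R 4.3.3 with limma-voom (limma 3.58.1) and TMM scaling (edgeR 4.0.16), with 1 coefficient per stage over all 10 libraries, and two-sided moderated tests were adjusted by the Benjamini-Hochberg method across all 13484 genes. Every adjusted p given is from this fit, and CPM values use TMM-scaled library sizes. A call needed an adjusted p under 0.05 and levels that differ by at least 25% of the lower one. The unadjusted p was under 0.05 for 5338 genes. Replicates are pools, so p-values measure the spread between pools, taken as 1 value per gene for all stages. The P0 replicates differed more than this shared spread allows for, so p-values of tests against P0 may be too small.

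Named genes were the 12 peaks and 12 dips with the largest margin among those averaging 100 counts or more in the 8 libraries, without overlap between middle and end libraries, up to 4 such members per list and direction, and Nes and Bcl11b, which the study followed. Some genes that this rule covers are not reported here, among them 1 of the 12 peaks. Other genes, including list members with overlapping libraries, were named after their values were seen. The 32 gene lists and the members were chosen with earlier results of these data known. The code was tested on simulated counts. DESeq2 (1.42.0), edgeR's quasi-likelihood test, other scalings, filters and left-out libraries were alternatives. Promoter sequences and gene lengths came from RefSeq (GRCm38.p6).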

Additional observations from a re-analysis of the deposited data

How the results depend on the processing

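The 74 genes followed through the 22 alternatives kept the direction of their contrast in each. Of their values under these, 1513 stayed on the same side of the threshold, 113 lost a call and 2 gained one. Most of these genes were chosen by their values in these data, which favored a kept direction. The alternatives that changed only the fold threshold use the same fit, so they could not change a direction. With scaling by total counts only, 2901 genes were called higher and 46 were stricter dips. With a fold threshold of 2, there were 282 genes called higher, 420 called lower, 88 peaks, 280 dips, 10 stricter peaks and 26 stricter dips. With a minimum of 200 footprints there were 421 dips. DESeq2 gave 51 stricter peaks, and library quality weights gave 27 stricter peaks and 22 stricter dips. Other alternatives of scaling, filter and test kept each of the 6 counts within 1.5 times.

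Leaving out 1 library at a time gave 1220 to 2544 genes called higher, 699 to 1938 called lower, 497 to 1230 peaks, 364 to 1006 dips, 24 to 301 stricter peaks and 10 to 155 stricter dips. The lowest counts came without a library of E15.5 or E17 and the highest without one of P0. Without P0 replicate 1 there were 936 peaks and 990 dips, of which 613 and 578 were among the 754 and 645 given in the report, and without P0 replicate 2 there were 1230 and 1006, of which 593 and 452 were. Members kept without either P0 library and with edgeR and DESeq2 numbered 400 peaks and 344 dips, and 265 and 125 were kept in all 20 alternatives of scaling, filter, test and libraries. The counts of lists without P0 libraries were chosen after seeing the data.

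The replicate numbers did not pair the libraries across all stages, since the correlations of deviations between same-numbered libraries ran from -0.634 to 0.426 over 4559 genes. Those with E12.5 were all negative (-0.634 to -0.108). Among the other stages they ran from -0.044 (E14 with E17) to 0.426 (E15.5 with P0), and all but the former were positive. Whether some stages share a replicate difference was not tested. With a replicate block there were 1703 genes called higher, 1211 called lower, 702 peaks, 583 dips, 66 stricter peaks and 57 stricter dips.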
